A study of Mus musculus with 15 samples.

Results

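Single cells of the embryonic kidney mesenchyme were set against adult kidney cortex that had been diluted and amplified with the same protocol, gene by gene. The comparison takes 7 of the 15 arrays of the series, chosen by their titles: 4 single cells of the metanephric mesenchyme (MM), numbered 14, 15, 16 and 19, and 3 libraries of diluted cortex, lettered A, B and C. It covers 18759 genes, those with at least 1 probe set carrying a single platform symbol, after 1179 olfactory and vomeronasal receptor genes were set aside as a background class. The MM cells came from embryos at embryonic day 11.5 of mice with a Crym-GFP transgene, Tg(Crym-EGFP)GF82Gsat, in which regulatory sequence of Crym drives the reporter. Their sex is unknown and the strain unspecified in the labels. They were microdissected, triturated and picked with drawn-out glass needles under a fluorescence microscope. The diluted cortex came from adult male mice with the Ren1c-YFP reporter. A limited piece of cortex without medulla, holding mixed cell types, was lysed and then diluted. Both kinds of sample went through SCAMP, a single cell amplification for which 32 rounds are recorded. Of the remaining arrays, 5 single juxtaglomerular (JG) cells of adult Ren1c-YFP males, amplified in this way too, and 3 standard-labelled cortex libraries, with 1 round of a NuGEN kit, appear here as levels beside the comparison.

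Age, transgene, sex, tissue and the step from 1 cell to a lysate of many cells all differ between the groups together and cannot be told apart. No label names the animal of a cell, so the 4 cells count as 1 sample. The comparison therefore has no test and no p-value, and differences are given with the spread over cells and over libraries. In cortex, a lysate of many cells, more cells of a type and more RNA in each cell cannot be told apart.

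At this stage the metanephric mesenchyme is a small mass of embryonic cells beside the ureteric bud. Its nephron progenitors, which carry the transcription factor Six2, later turn into the epithelium of the nephron, while Foxd1-positive stroma progenitors give rise to interstitium and mural cells. Adult cortex is mostly tubule, and within it mostly proximal tubule, an epithelium that reabsorbs filtered solutes and burns fatty acids. The mesenchyme divides and has not yet built transporters or brush border enzymes.

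All levels below are log2 signals as deposited. The background level of an array is the 99th percentile of the receptor genes on it. It lay at 7.15 to 7.58 in MM cells and at 6.20 to 6.31 in diluted cortex, and the median receptor was 0.82 higher in MM cells, against 0.32 over all genes compared. MM cells thus had the higher floor. Above it stood 4074, 3065, 2111 and 4062 genes in MM cells 14, 15, 16 and 19, and 9559 to 9986 in the diluted libraries. MM cell 16 had the fewest. The median SD of a gene was 0.33 over MM cells and 0.11 over libraries. When the receptor medians of the arrays were aligned, the median difference over all genes became -0.53, with array medians aligned -0.053, and after quantile normalization 0.077. Small list medians can therefore change sign with the scaling, which is said where it occurs.

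Genes of the given marker set come first, and MM cell 16 was the lowest of the 4 cells in each. Mest, an imprinted gene of embryonic mesenchyme, measured 12.70, 11.16, 6.64 and 12.16 in MM cells 14, 15, 16 and 19, and 5.94, 5.95 and 6.01 in diluted cortex A, B and C. Tead2, a transcription factor of the Hippo pathway, measured 11.22, 11.30, 7.54 and 11.51 against 6.24, 6.21 and 6.01. Snai1, a repressor of epithelial genes, measured 10.85, 12.41, 8.67 and 11.56 against 6.43, 6.88 and 6.73. Every MM cell lay above every library for these 3 genes, but for Mest and Tead2 cell 16 did not clear its background level. Crabp2, which carries retinoic acid into the nucleus, was at 12.06 and 12.10 in cells 14 and 19, at 6.80 and 6.26 in cells 15 and 16, and at 5.50 to 5.56 in cortex. The differences of the means were 4.70 for Mest, 4.24 for Tead2, 4.19 for Snai1 and 3.78 for Crabp2, with SDs over cells of 2.76, 1.91, 1.60 and 3.21. Against the background level of the cortex arrays, that made Mest at least 21.1-fold and Crabp2 at least 8.21-fold higher. No JG cell had Mest, Tead2 or Crabp2 above background. Snai1 was above background in 3 of the 5 JG cells. These markers were proposed with the data known, so their levels are a description.

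Classical regulators of nephron progenitors gave a thinner picture. Six2 stood at 7.53, 7.18, 10.13 and 6.69 in cells 14, 15, 16 and 19 and at 5.64 to 5.71 in cortex, so it was far above background in MM cell 16 and just above it in cell 14. Hoxd11, a Hox factor of the metanephric field, was above background in all 4 cells, at 8.62, 9.15, 7.88 and 8.50 against 6.59, 7.24 and 6.86 in cortex. Gdnf, the ligand that draws out the ureteric bud, passed background in MM cell 16 alone, at 7.85, and Wt1 in MM cell 19 alone, at 8.28. Pax2 was above background in 3 MM cells, by at most 0.16, and in 0 libraries, with a difference of 1.40. Cited1 was above background in 3 MM cells and all 3 libraries, with a difference of 0.83. Eya1 and Sall1 were below background in every MM cell. Of the 23 measured genes of the progenitor list, 4 to 7 were above background in an MM cell and 9 in each diluted library. None met the rule for a higher gene, and Crym met the rule for a lower one, beside 0.155% and 12.2% of all genes. The median difference of the list was 0.83, that of the receptors 0.82, and -0.02 with receptor medians aligned. Crym, the gene whose regulatory sequence drives the reporter of these mice, measured 7.27, 7.50, 8.61 and 6.90 in MM cells and 11.20, 11.08 and 11.02 in diluted cortex, 11.6-fold lower in MM cells. Standard-labelled cortex had Crym at 8.16 to 8.28, where the difference was -0.65 and MM cell 16 lay above every library.

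**Figure D1:**
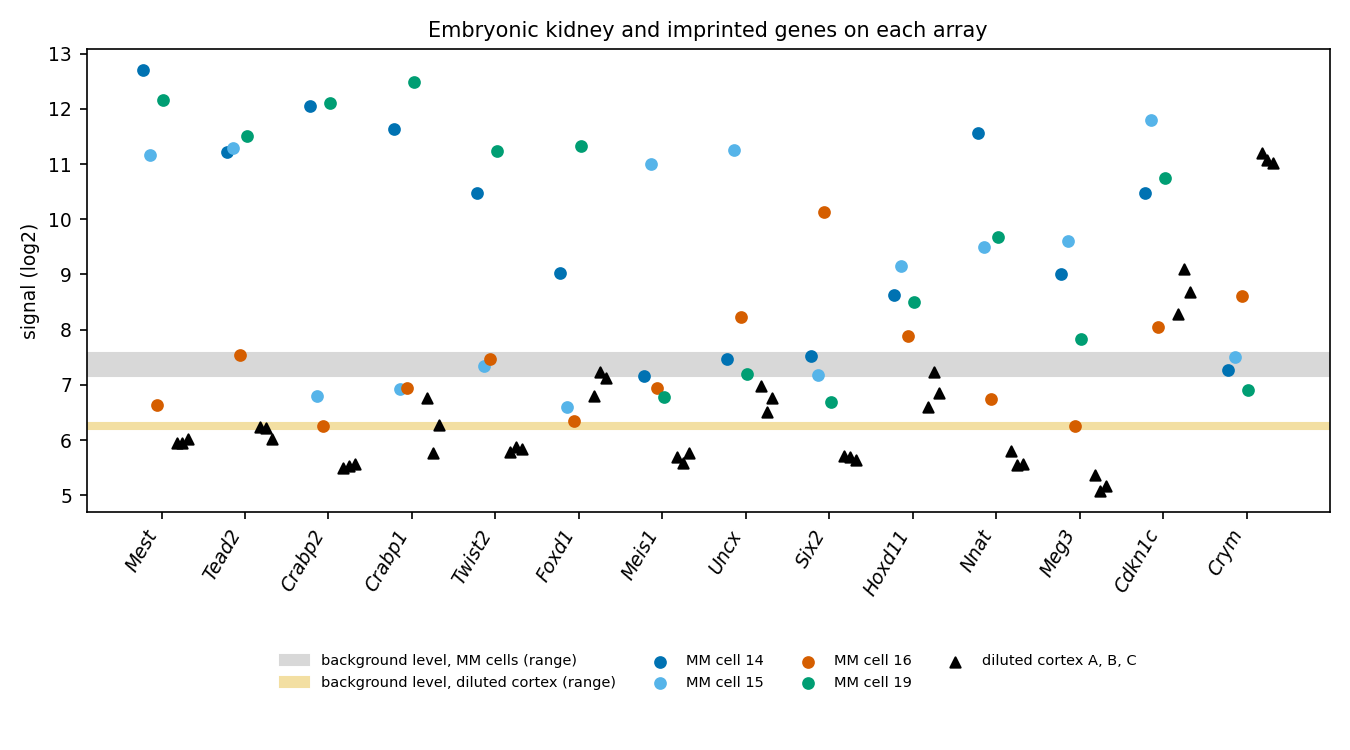
Log2 signal of 14 genes of the embryonic kidney, imprinted genes and Crym (x axis) on each of the 4 MM cells (coloured points) and 3 diluted cortex libraries (black triangles); the bands span the background levels of the 2 groups. MM cells 14 and 19 are high together in Crabp2, Crabp1, Twist2 and Foxd1, MM cell 15 in Meis1 and Uncx, and MM cell 16 in Six2, while Crym is high in cortex.

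The MM cells were not alike in the genes that mark mesenchymal lineages. Cells 14 and 19 carried Crabp1, a second retinoic acid binding protein, at 11.64 and 12.49, Twist2, a mesenchymal repressor, at 10.48 and 11.24, and Foxd1, the stroma progenitor factor, at 9.03 and 11.33. Cells 15 and 16 had these genes at 6.35 to 7.47, below their background levels. Cells 14 and 19 also had the most genes above background, 4074 and 4062 against 3065 and 2111. The part of detection in this pairing was not tested. Prrx2, a mesenchymal state gene, went otherwise, at 10.93, 8.26, 7.94 and 6.90 in cells 14, 15, 16 and 19. MM cell 15 in turn had Meis1, a homeobox cofactor of the stroma, at 11.0 and Uncx, a homeobox factor, at 11.26, where the other 3 cells had 6.78 to 7.16 and 7.20 to 8.23. Twist1 was high in MM cell 19 alone (11.16) and Meis2 in cells 15 and 19 (8.44 and 10.97). Cortex held Crabp1 at 5.77 to 6.76, Twist2 at 5.78 to 5.88, Meis1 at 5.59 to 5.76 and Foxd1 at 6.80 to 7.24. Of 14 measured stroma progenitor genes, none met the rule for a higher gene, and the matrix protein gene Dcn met that for a lower one. Of all genes, 0.155% and 12.2% met these rules. Of 13 mesenchymal state genes, Snai1 was the one that met the higher rule. Vim, the mesenchymal intermediate filament, did not separate the groups, at 11.82, 9.53, 7.03 and 11.59 in MM cells and 9.89 to 10.28 in cortex.

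To count genes, a gene was called higher when its mean difference was at least 2 log2 units, every MM cell lay above every library, and all 4 cells were above background. By this rule 29 of the 18759 genes were higher, which is 0.155%. A gene was called lower with the signs turned and all 3 libraries above background, and 2286 genes were, which is 12.2%. The higher genes differed by 2.03 to 4.19, with a median of 2.42, and the lower genes by up to 7.26, with a median of -3.01. Just inside the threshold lay Mdk (2.03) and Gm5779 (2.07), and just outside Eif4ebp1 (1.997) and Znrd2 (1.97). Without MM cell 16 the count of higher genes was 79. Higher genes made up 1.25% of all counted genes, and 13.5% after quantile normalization, with 261 higher and 1667 lower. A total of 9 genes met the higher rule under the deposited values and all 3 scalings, Snai1, Pclaf, Cks1b, Mdfi, Tuba1a, Hmgb2, H1f10, Ddah2 and H4c6.

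**Figure D2:**
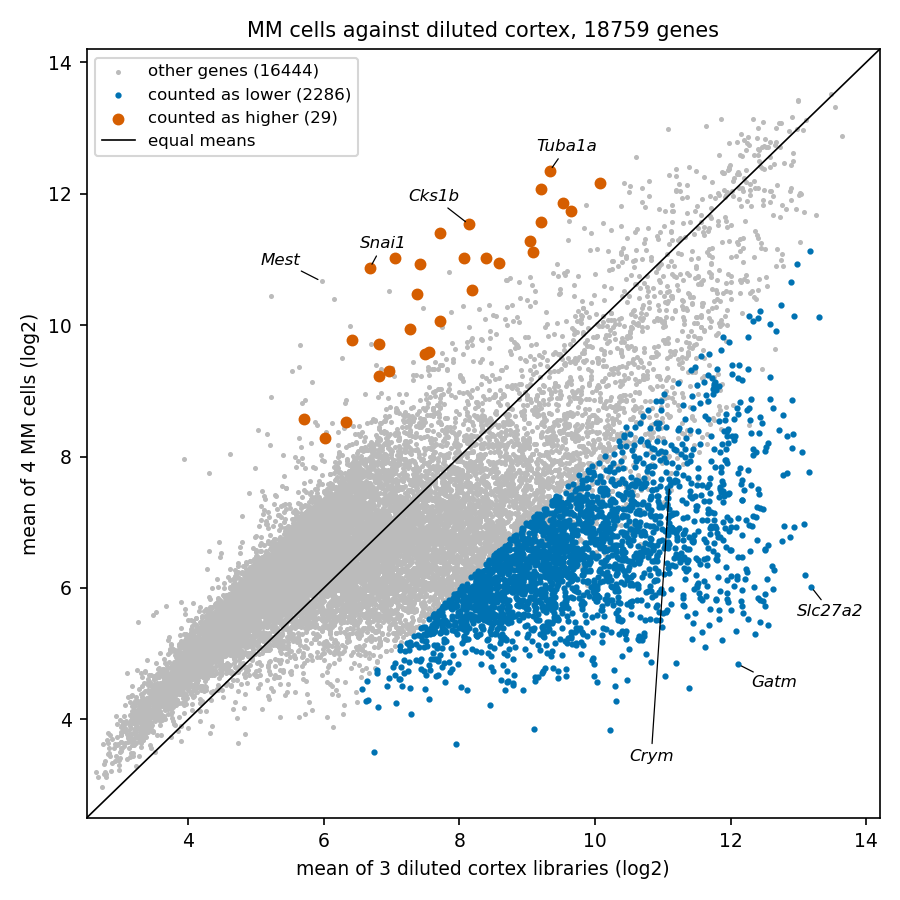
Mean log2 signal of the 4 MM cells (y axis) against the mean of the 3 diluted cortex libraries (x axis) for 18759 genes, with the 29 genes counted as higher in orange and the 2286 counted as lower in blue; the line marks equal means. The cloud of low signals lies above the line, and the blue genes reach to the right edge at MM levels of about background, where Gatm and Slc27a2 lie.

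Several higher genes are known from dividing cells or chromatin. They are put together here by known role, after their values were seen, and 12 of the 29 higher genes belong to any of the lists. Pclaf, a partner of the replication clamp PCNA, measured 11.91, 10.97, 11.17 and 10.03 in MM cells against 6.22, 7.70 and 7.25, a difference of 3.96. All 5 JG cells had it below background. Cks1b, a subunit of cell cycle kinases, measured 11.67, 11.28, 12.82 and 10.37 against 8.26, 7.99 and 8.17. Hmgb2, a chromatin protein of dividing cells, measured 10.99, 10.23, 11.58 and 11.28 against 8.14, 8.02 and 8.04. In these 3 genes MM cell 16 was as high as the others. That the groups do not overlap is part of the rule. Cenpa, the histone H3 of the centromere, measured 10.20, 11.89, 7.88 and 11.93 against 7.36 to 7.39. H2ax, the histone that marks DNA breaks, measured 11.37, 10.54, 11.45 and 10.72 against 8.35 to 8.47, and Macroh2a2, a variant H2A, 10.70 to 11.25 against 8.53 to 8.67. The linker histone gene H1f10 was higher by 2.90, and Rcc2, a mitotic regulator, by 2.34. Cenpa was above background in 4 of the 5 JG cells and H1f10 in all 5. Their JG means were 10.10 and 9.58, against 10.47 and 9.71 in MM cells. Cks1b, Hmgb2, Macroh2a2 and Rcc2 were above background in 1 JG cell each, and H2ax in none.

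Over the whole cell cycle lists, few genes met a rule. Of 30 measured mitosis genes, 3 were higher (Cks1b, Cenpa and Hmgb2) and 1, Cks2, was lower, where 0.155% and 12.2% of all genes were. Cks2 was high in cells 14 and 19 (10.31 and 10.12) and low in cells 15 and 16 (6.93 and 4.64), below the 10.77 to 11.02 of cortex. Ube2c, which tags mitotic cyclins for destruction, was at 10.27, 6.50, 11.90 and 10.16 against 6.61 to 6.81, and Cdca3, another mitotic regulator, at 11.48, 11.06, 6.11 and 9.12 against 7.14 to 7.51, so each missed the rule by 1 cell. Of 42 replication genes none was higher, 1 was lower, and 30, 10, 4 and 23 were above background in cells 14, 15, 16 and 19, against 32 to 34 in diluted cortex. Of the mitosis genes 12, 4, 5 and 9 were, against 14 in each library. Mcm4, a subunit of the replicative helicase, was at 10.60 and 10.64 in cells 14 and 19 and at 7.61 and 6.44 in cells 15 and 16. The median difference was 0.95 for mitosis genes, close to the 0.82 of the receptors, and 0.10 with receptor medians aligned, while the 0.37 of replication genes became -0.48 with receptor medians aligned. Of 27 replication-dependent histone genes, H4c4 and H4c6 were higher and H2bc4, H1f2 and H3c15 were lower. H2bc4 was at 12.39 to 12.54 in cortex, at 10.98 in MM cell 19 and at 3.58 to 4.50 in the other cells. Copies of these histone genes are nearly identical, so the signal of a single copy is uncertain.

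The promoters of Pclaf and Cks1b are shown because both genes met the higher rule and their windows hold several of the motifs searched. Both windows are from RefSeq, assembly GRCm38.p6, 300 bases each, read 5′ to 3′ on the strand of the gene. Capitals mark the E2F motif TTCCCGC, the CHR motif TTTGAA and the NF-Y motif CCAAT, on either strand.
Pclaf, chr9:65890073-65890372, + strand: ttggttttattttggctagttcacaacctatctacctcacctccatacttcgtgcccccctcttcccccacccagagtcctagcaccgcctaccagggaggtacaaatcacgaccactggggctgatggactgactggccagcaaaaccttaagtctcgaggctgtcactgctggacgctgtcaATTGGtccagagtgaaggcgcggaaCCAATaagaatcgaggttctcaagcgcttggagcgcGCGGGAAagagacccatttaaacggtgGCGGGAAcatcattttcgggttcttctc
Cks1b, chr3:89418242-89418541, - strand: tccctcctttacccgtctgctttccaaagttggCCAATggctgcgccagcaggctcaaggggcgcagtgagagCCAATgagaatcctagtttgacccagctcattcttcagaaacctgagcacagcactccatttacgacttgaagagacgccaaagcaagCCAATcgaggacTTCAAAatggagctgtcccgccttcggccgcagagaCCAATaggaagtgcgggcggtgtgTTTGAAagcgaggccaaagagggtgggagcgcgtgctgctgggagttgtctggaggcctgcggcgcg
The Pclaf window holds 4 matches and the Cks1b window 6. A promoter window was found for 24 of the 29 higher genes, with 27 windows in all. Of these, 14 windows (51.9%) held CCAAT, against 37.2% of the windows of all genes compared. TTCCCGC was in 5 (18.5%), against 6.75%, and TTTGAA in 6 (22.2%), against 13.6%. The TEAD motif GGAATG was in 18.5% against 13.1%, and TATAAA in 18.5% against 9.84%. None of the motifs contains another, a match is no evidence of binding, and the shares of so few windows carry no test.

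The growth factor genes Dlk1 and Mdk were among the higher genes too, as were Mfap2, Mdfi and Sox9. They share no list. Dlk1, an imprinted Notch-like ligand, measured 7.70, 10.52, 8.24 and 10.46 against 6.67, 7.07 and 6.68. Mdk, a heparin-binding growth factor, measured 11.10, 11.19, 10.76 and 11.38 against 9.18, 8.69 and 9.37. All 5 JG cells carried it above background too, as they did Dlk1 (7.77 to 8.48), Mfap2 (7.98 to 9.28) and Mdfi (7.86 to 8.42). Sox9 was above background in 1 JG cell. Mfap2, a microfibril protein gene, measured 12.77, 12.51, 8.22 and 12.11 against 7.70 to 7.72, and Mdfi, an inhibitor of MyoD-family factors, 10.36, 10.13, 8.03 and 10.58 against 6.29 to 6.54. Sox9, a progenitor factor that is also a ureteric bud gene, was at 10.68 in MM cell 19 and at 7.54 to 8.22 in the other cells, against 6.18 to 6.59. Of the 17 measured imprinted and fetal growth genes, Dlk1 alone met the rule, beside 0.155% of all genes. Their median difference of 1.34 was 0.49 with receptor medians aligned. Nnat, a proteolipid gene, was at 11.56, 9.49, 6.75 and 9.68 against 5.54 to 5.80. The noncoding RNA gene Meg3 was at 9.0, 9.61, 6.26 and 7.83 against 5.08 to 5.36. Cdkn1c, a cell cycle inhibitor, was above background in all 4 cells, at 10.48, 11.80, 8.05 and 10.74, but cortex had it at 8.29 to 9.10. Igf2 was at 7.42 to 7.96, close to the background levels of 7.15 to 7.58, and at 5.85 to 6.08 in cortex. Mycn and Myc, transcription factors of growth, were highest in MM cell 14 at 11.29 and 11.13, while MM cell 16 had 7.31 and 5.90.

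Cytoskeleton and RNA processing genes were also among the higher genes, and their spread over MM cells differed widely, from an SD of 0.12 for Tuba1a to 2.18 for Fscn1. Tuba1a, an alpha tubulin, measured 12.22, 12.48, 12.29 and 12.41 in MM cells and 8.90, 9.46 and 9.64 in cortex, 12.35 ± 0.12 (SD over 4 cells) against 9.33 ± 0.39 (SD over 3 libraries). Marcksl1, an actin-binding protein gene, measured 10.14 to 11.15 against 8.14 to 8.22, and Tpm2, a tropomyosin, 9.19 to 10.61 against 7.09 to 8.36. Fscn1, an actin bundler, was 11.77 to 12.42 in 3 cells but 7.70 in MM cell 16, against 7.32 to 7.50. Below the threshold, Tmsb10, an actin-sequestering peptide, was higher by 1.91, at 12.92 to 13.05 in every MM cell. Snrpa, a protein of the U1 particle, measured 11.24 to 11.89 against 9.0 to 9.47, and the splicing factor Srsf9 10.95 to 12.97 against 9.47 to 9.57. Snrpe, a core spliceosome protein, was at 11.90 to 12.32 against 10.41 to 10.46, and Ranbp1, of nuclear transport, at 12.35 to 12.73 against 10.51 to 10.70. Of 40 splicing genes 2 were higher and 1 lower, beside 0.155% and 12.2% of all genes. Their median difference of -0.04 was -0.89 with receptor medians aligned, -0.41 with array medians aligned and 0.45 after quantile normalization. Ddah2, which breaks down methylarginines, measured 11.65 to 12.60 against 9.09 to 9.36.

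Most of the higher genes were detected in cortex too. Above background in all 3 diluted libraries were 25 of the 29, and in none were 2, H4c6 and Gm8096. The rule asks for all 4 MM cells. Of all genes above background in these 4 cells, 1222 were so in 3 libraries, 25 in 2, 15 in 1 and 13 in none. In JG cells, 7 of the 29 were above background in all 5 cells, 18 in 1 to 4, and 4 (Pclaf, H2ax, Srsf9 and Gm8096) in none. Over all genes, 7.05% to 14.8% were above background in a JG cell. Every MM cell lay above every standard-labelled library in 28 of the 29, Baiap2l1 being the exception. The whole higher rule, with its 2 log2 units, was met against that cortex by 25. Besides Baiap2l1, Hmgb2, Tuba1a and Tpm2 did not meet it. Probe sets could disagree: of the 3 of Baiap2l1, another differed by -1.05, while the 4 of Hmgb2 differed by 2.82 to 2.95.

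Because MM cell 16 had the fewest genes above background, the count was repeated asking for at least 3 of the 4 cells, a choice made after seeing the data. It found 55 genes, 0.293% of those compared. In 19 of the 26 added genes MM cell 16 was the missing cell, in 4 it was cell 15, in 2 cell 14 and in 1 cell 19. Mest, Tead2, Nnat and Meg3 were among those missing in cell 16. The following were singled out after their values were seen. The uncharacterized 2610318N02Rik measured 11.95, 12.12, 5.86 and 11.87 against 5.17 to 5.27, at least 18.1-fold higher. Fzd2, a Wnt receptor, measured 10.52, 11.44, 7.35 and 10.63 against 6.34 to 6.48, and Nr2f1, an orphan nuclear receptor, 9.33, 8.23, 6.13 and 11.78 against 5.51 to 5.92. Cenpw, of the centromere, measured 11.83, 11.42, 6.51 and 11.27 against 7.39 to 7.53. All these genes were taken from those missing in cell 16, where they were below background. Pclaf, Cks1b and Hmgb2 were above background there, as the higher rule requires, so the contrast follows from the choice of genes.

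**Figure D3:**
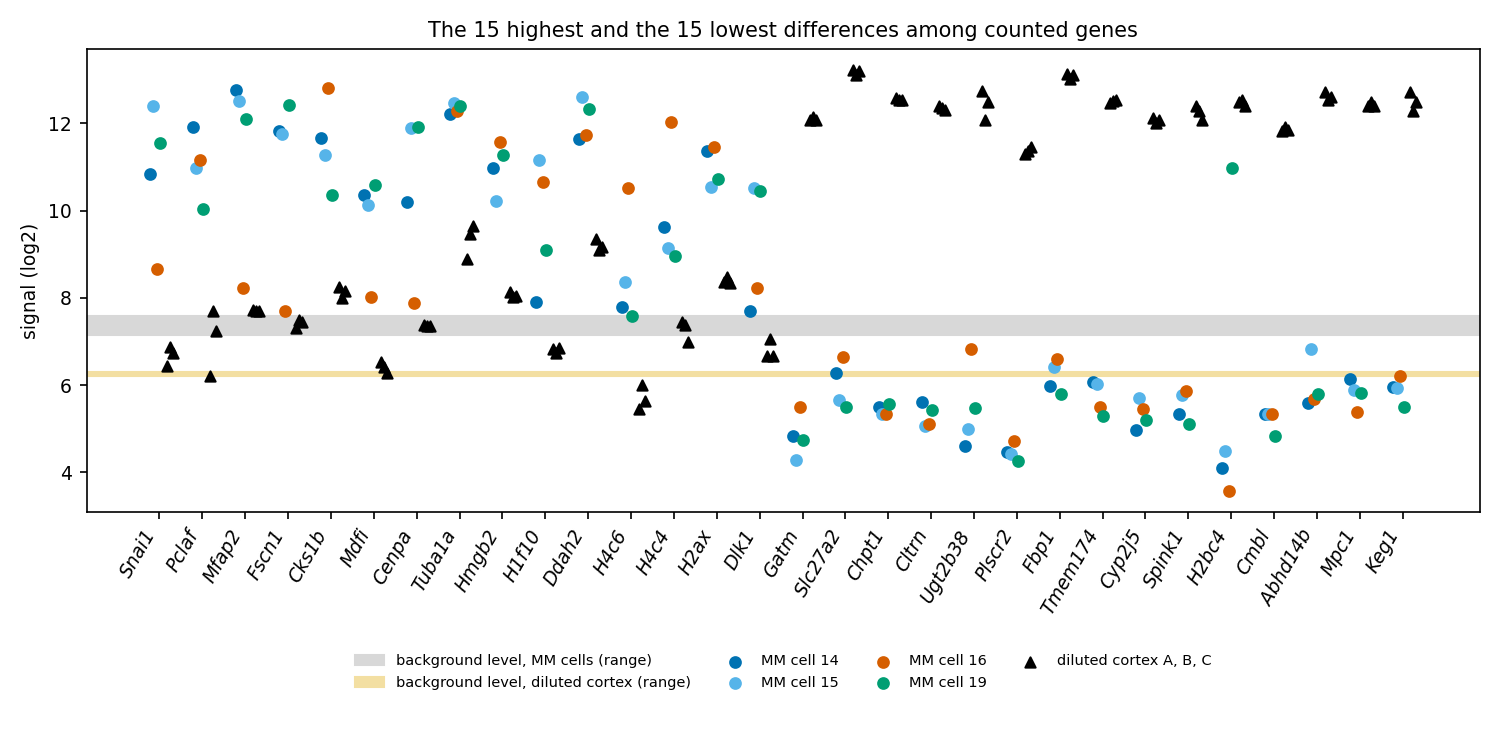
Log2 signal on each MM cell (coloured points) and each diluted cortex library (black triangles) for the 15 highest and the 15 lowest differences among counted genes (x axis), with bands for the range of background levels. The higher genes sit above the background of cortex in most libraries, while the lower genes sit below the MM background in every cell except H2bc4, at 10.98 in MM cell 19.

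Genes of tubule transport and metabolism were among the lowest. Of the 2286 lower genes, 175 belong to any of the lists. The largest difference was that of Gatm, which makes the creatine precursor, at 4.83, 4.29, 5.50 and 4.74 in MM cells and 12.08, 12.15 and 12.09 in diluted cortex. Taking MM cells at their background level, Gatm was at least 27.4-fold lower in them. Slc27a2, a fatty acid transporter and acyl-CoA synthetase, measured 5.49 to 6.65 against 13.12 to 13.22, at least 57.9-fold lower. Next came Chpt1, of phosphatidylcholine synthesis (at least 37.5-fold), Cltrn, the amino acid transporter partner collectrin (at least 32.7-fold), Ugt2b38, a glucuronidation enzyme (at least 34.5-fold), Plscr2, of the phospholipid scramblase family (at least 16.6-fold), and Fbp1, the gluconeogenic bisphosphatase (at least 54.4-fold). Mpc1, a subunit of the mitochondrial pyruvate carrier, was at 5.39 to 6.14 against 12.39 to 12.49. Of the 15 lowest genes, all but H2bc4 were below background in every MM cell. Among all 2286 lower genes, 1561 (68.3%) were below background in every MM cell. Most of the 18759 genes compared were so too. They were 7878 genes above background in no diluted library, 514 in 1, 412 in 2 and 3942 in 3. The lower rule asks for all 3 libraries. Of the other genes above background in all 3, 1819 were so in 1 MM cell, 1138 in 2, 977 in 3 and 1222 in 4. Of the lower genes, 504 differed by 4 log2 units or more, and 1821 (79.7%) were also below every standard-labelled library in every cell.

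The collectrin promoter is shown as the tubule example, since it holds the HNF1 motif searched. The other RefSeq window of this gene, chrX:164091939-164092238, holds 0 matches. The window shown is a RefSeq window of assembly GRCm38.p6, 300 bases on the strand of the gene, with GTTAAT in capitals on either strand.
Cltrn, chrX:164089937-164090236, + strand: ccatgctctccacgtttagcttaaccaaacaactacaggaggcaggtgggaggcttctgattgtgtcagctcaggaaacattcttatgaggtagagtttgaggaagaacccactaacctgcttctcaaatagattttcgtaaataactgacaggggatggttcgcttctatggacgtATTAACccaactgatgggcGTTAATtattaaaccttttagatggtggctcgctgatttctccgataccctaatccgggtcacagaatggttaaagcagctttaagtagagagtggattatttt
GTTAAT was found in 55 of 494 windows (11.1%) of the genes lower by 4 or more, in 6.80% of those of all lower genes, in 5.37% of the windows of all genes compared, in 7.10% of all windows of the table, and in 0 of the 27 windows of higher genes. The HNF4 motif AAAGTCC was in 7.09% of the windows of genes lower by 4 or more, 4.62% of those of all lower genes, 4.23% of those of all genes compared, 4.21% of all windows and again in 0 of the higher genes. Both factors are regulators of tubule epithelium, and the shares describe letters in these windows, not binding.

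Most proximal tubule genes were lower. Of 23 measured enzyme genes 22 were lower, and of 26 transport and endocytosis genes 20 were, beside 12.2% of all genes, with median differences of -5.13 and -3.97. Slc34a1, the phosphate cotransporter, measured 6.81 to 7.06 against 13.03 to 13.11, at least 53.8-fold lower, and Slc3a1, of cystine uptake, 6.09 to 6.67 against 12.58 to 12.74. Slc5a2, the glucose transporter SGLT2, was at 7.60, 7.05, 6.48 and 7.0 against 11.55 to 11.60. The endocytic receptor Lrp2 did not meet the rule, at 6.15 to 6.54 against 8.13 to 8.30, but the standard-labelled libraries had it at 11.26 to 11.38. Of 18 cytochrome P450 and conjugation genes all 18 were lower, with a median of -4.67, among them Cyp2e1 at 5.39 to 6.57 against 11.79 to 12.47. Fatty acid oxidation genes were lower in 19 of 24, with a median of -3.61. Acsm2, a medium-chain acyl-CoA ligase, measured 5.51 to 6.33 against 12.30 to 12.54. Acadm, the medium-chain dehydrogenase, was at 7.38 in MM cell 14 and 5.27 to 5.99 in the others, against 12.16 to 12.62. Acadl, the long-chain dehydrogenase, was at 10.40 in MM cell 14 and at 5.19 to 5.61 in the others, against 11.79 to 12.11.

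Later nephron segments had lower genes as well. All 11 measured thick ascending limb genes were lower, beside 12.2% of all genes, with a median of -3.79. Umod, the urinary protein uromodulin, measured 6.02, 6.40, 7.47 and 6.42 against 12.46 to 12.54, and Slc12a1, the loop cotransporter, 5.34 to 6.36 against 10.23 to 10.30. Of 10 distal convoluted tubule genes 4 were lower, among them Slc12a3, the thiazide-sensitive cotransporter, at 5.68 to 6.99 against 10.86 to 10.91 and Calb1, a calcium buffer, at 5.59 to 6.09 against 10.92 to 11.23. Of 10 collecting duct genes 6 were lower. Aqp2, the vasopressin-regulated water channel, measured 8.15 to 8.50 against 11.82 to 12.17, but the standard-labelled libraries had it at 7.5 on average, below the MM cells. Of 12 intercalated cell genes 6 were lower, such as the anion exchanger Slc26a4 at 5.25 to 5.47 against 9.24 to 9.37. The sodium pump subunit Atp1b1 was at 5.94 to 6.42 against 12.44 to 12.60, at least 37.2-fold lower. Lysosome genes were lower in 15 of 18, with a median of -3.90. Lamp2, of the lysosomal membrane, was at 4.86 to 5.81 against 11.35 to 11.52, and the protease Lgmn at 10.98 in MM cell 19 but 5.68 to 6.19 elsewhere. Of 15 ureteric bud genes 4 were lower, beside 12.2% of all genes, and Sox9 was higher. Among the lower ones were Cdh16, kidney cadherin, at 6.18 to 6.77 against 12.02 to 12.20, Epcam at 5.70 to 5.97 against 8.67 to 8.81 and Krt8 at 7.70 to 8.51 against 11.21 to 11.33, while Cdh1 differed by -0.25, Gata3 by -0.05 and Etv4 by 1.34. Pax8, a nephron factor, was at 6.69 to 7.52 against 9.29 to 9.50, and at 7.42 to 7.64 in standard-labelled cortex.

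**Figure D4:**
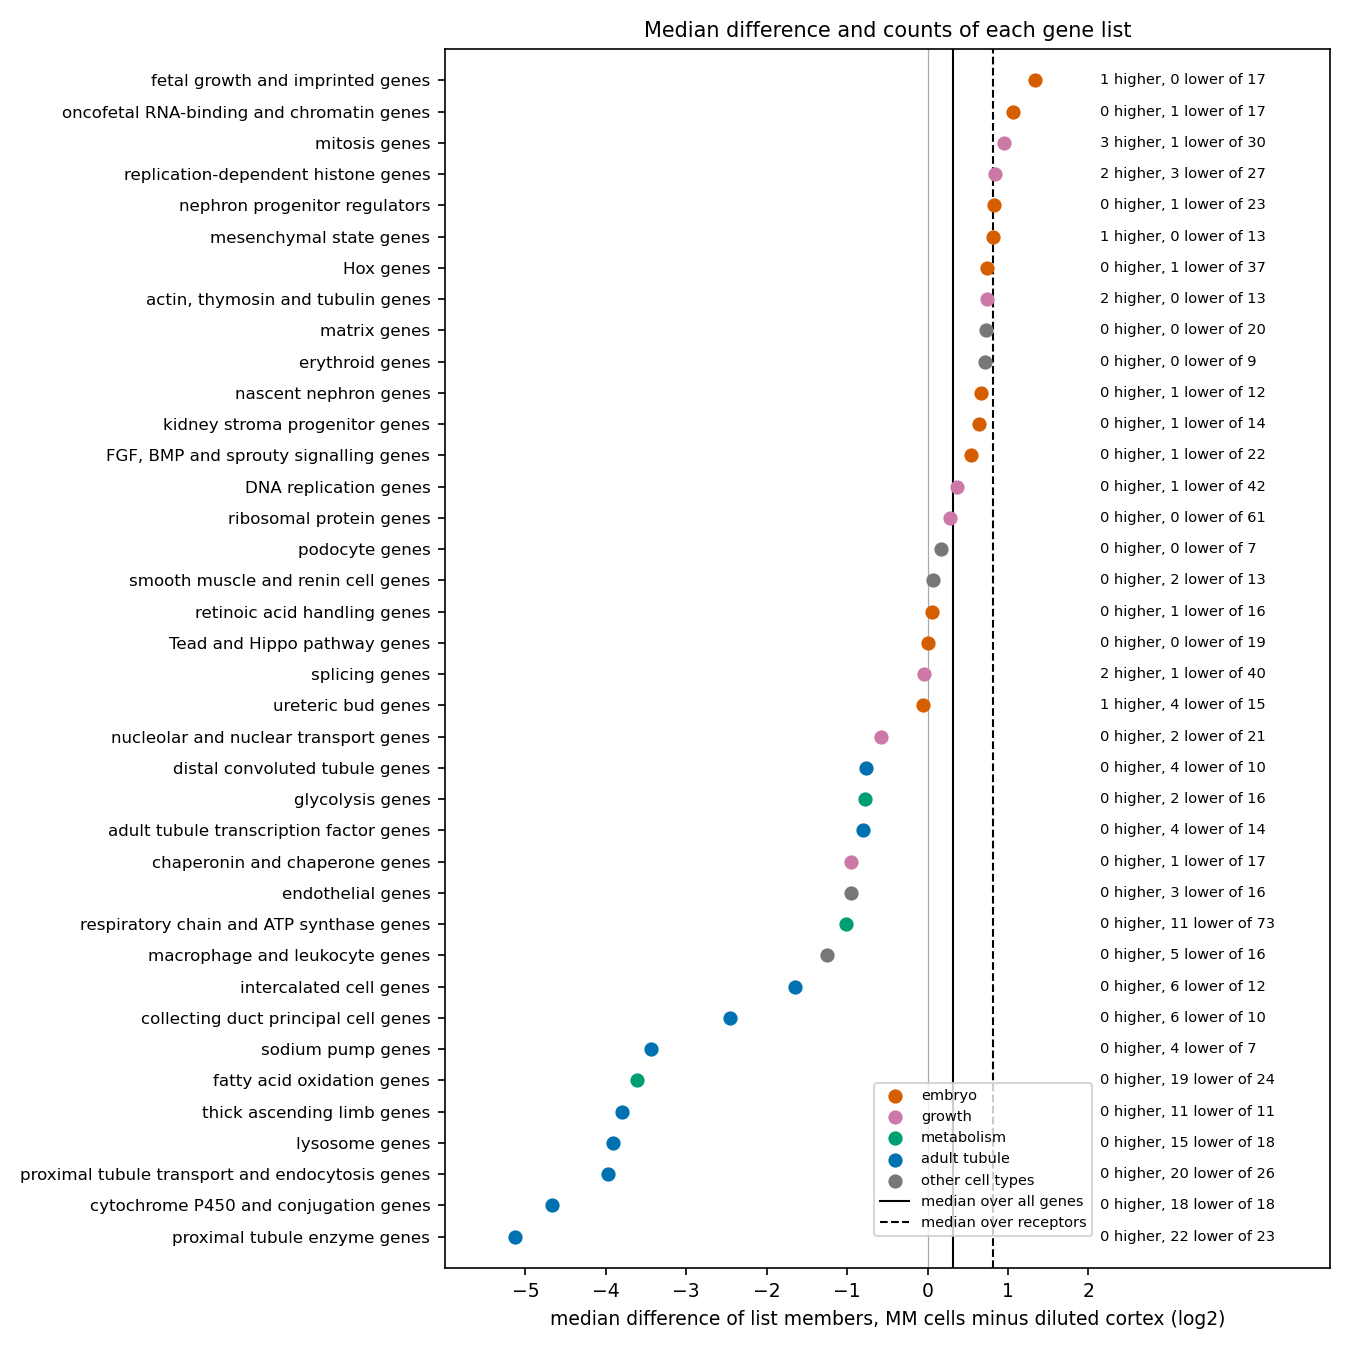
Median difference (x axis, log2, MM cells minus diluted cortex) of each of 38 gene lists, coloured by kind, with the number of members higher and lower of those measured on the right; the solid line is the median over all genes (0.32) and the dashed line that over receptors (0.82). Fatty acid, thick ascending limb, lysosome, cytochrome P450 and proximal tubule lists lie between -3.61 and -5.13, while embryo lists lie between -0.06 and 1.34.

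Ribosomal protein genes gave 0 higher and 0 lower of 61, with a median difference of 0.27 that was -0.57 with receptor medians aligned. In each MM cell 55 or 56 of them were above background, and 58 or 59 in diluted cortex. Rplp0, picked after its value was seen, measured 12.98 ± 0.02 (SD over 4 cells) against 13.06 ± 0.07 (SD over 3 libraries). Respiratory chain and ATP synthase genes were above background in 70, 65, 53 and 71 of 73 in cells 14, 15, 16 and 19, and in all 73 in cortex. None of the 73 was higher and 11 were lower, beside 12.2% of all genes, with a median of -1.01. Cox4i1, likewise picked afterwards, was at 12.44 to 12.66 against 12.55 to 12.65, whereas Uqcrb, of complex III, was at 5.72, 5.94, 6.46 and 8.99 against 11.21 to 11.22 and Sdha, of complex II, at 8.94, 9.61, 6.61 and 9.02 against 11.81 to 11.83. Chaperone genes were above background in 15, 15, 6 and 16 of 17. Hspa9, the mitochondrial Hsp70, was at 10.78 and 10.70 in cells 14 and 19 and at 5.44 and 5.54 in cells 15 and 16, and Hspd1, its chaperonin partner, at 11.84 and 11.37 in cells 15 and 19 and at 4.74 and 5.26 in cells 14 and 16. Of the 1222 genes above background on all 7 arrays, 670 (54.8%) differed by less than 1 log2 unit, 362 were higher by at least that and 190 lower.

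**Figure D5:**
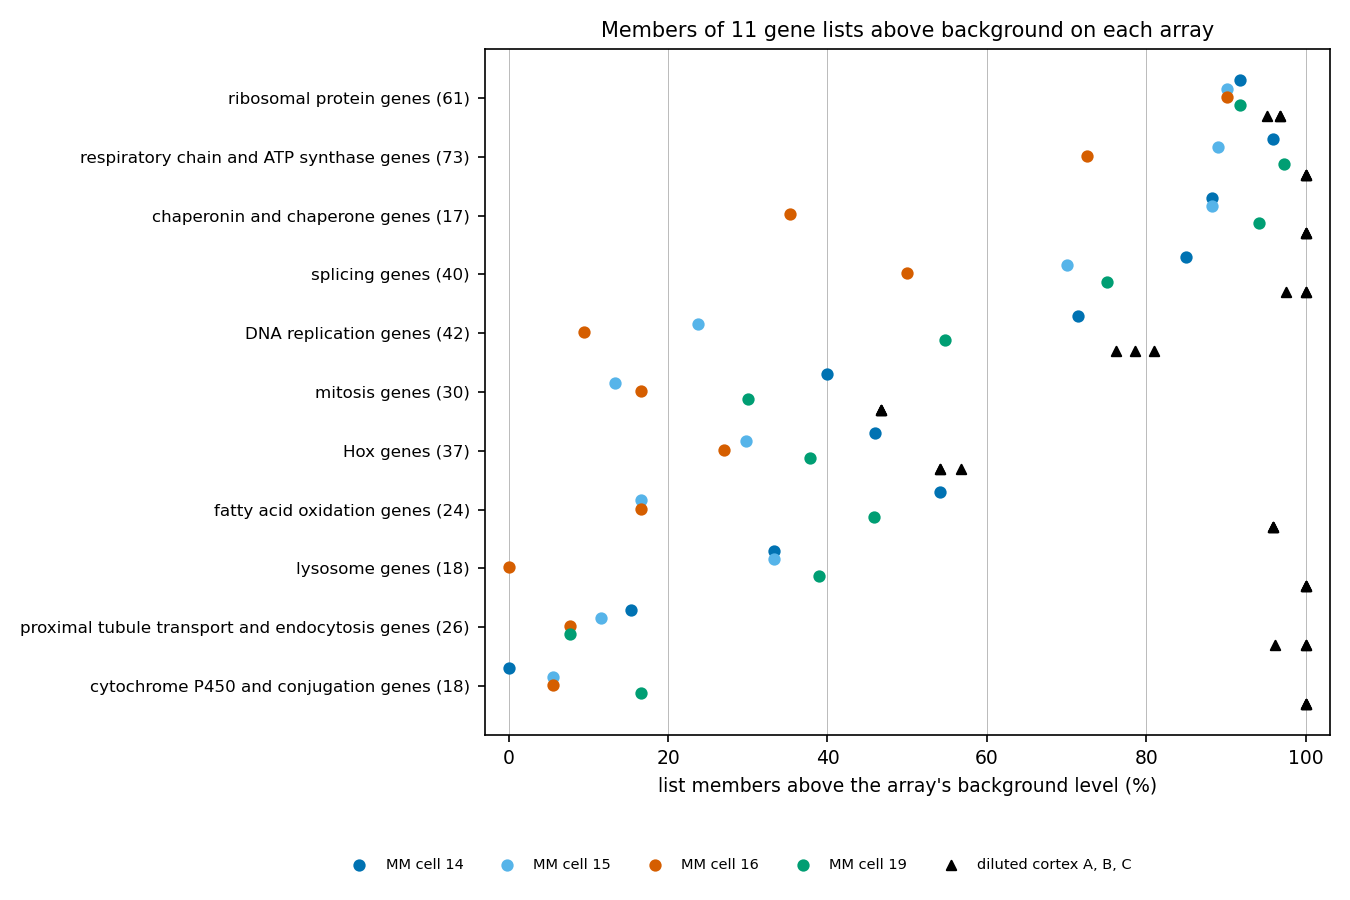
Share of list members above the background level of the array (x axis, %) for 11 gene lists, with the number of members in brackets; coloured points are MM cells and black triangles diluted cortex libraries. Ribosomal protein genes lie at the right in every cell, respiratory genes too except in MM cell 16 (53 of 73), and proximal tubule and cytochrome P450 genes lie at the left in all 4 cells.

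Detection depended on the level in cortex, so lists were also compared at like levels. Of genes at 8 to 10 in diluted cortex, 1314 of 3249 (40.4%) were above background in no MM cell, of those at 10 to 12 it was 331 of 1494 (22.2%), and of those at 12 or more 41 of 261 (15.7%). At the same levels, proximal tubule enzymes were undetected in 6 of 6, 7 of 7 and 5 of 9, and transport genes in 5 of 6, 8 of 13 and 5 of 5. Respiratory chain genes were undetected in 0 of 2, 0 of 24 and 0 of 47, and ribosomal protein genes in 0 of 5, 0 of 13 and 0 of 36. Over all genes, 3942 (21%) were above background in all 3 libraries and in no MM cell. The reverse, all 4 MM cells and no library, held for 13 genes (0.0693%). Of these, H4c6 and Gm8096 reached 1 log2 unit above background in their highest cell, and 8 of the 13 were also above background in at least 3 JG cells.

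Markers of other cell types were mostly at background in MM cells, as were most genes, with exceptions in single cells. Over all genes, 21.7%, 16.3%, 11.3% and 21.7% were above background in cells 14, 15, 16 and 19. In diluted cortex the share was 51.0% to 53.2%. Of 16 endothelial genes 5, 2, 2 and 2 were above background in cells 14, 15, 16 and 19, against 11 or 12 in diluted cortex. Emcn, an endothelial sialomucin, was at 11.77 in MM cell 14 and at 5.32 to 6.07 in the others, against 9.79 to 9.97 in cortex, while Pecam1 and Kdr were below background in every MM cell. Plvap and Egfl7, of vessel walls, were above background in all 4 cells, at 7.17 to 8.77 and 7.31 to 9.29, against 9.94 to 10.09 and 9.92 to 10.18 in diluted cortex, but standard-labelled cortex had them lower, at 7.01 to 7.21 and 7.72 to 7.78. The median endothelial gene was at 6.50 to 6.70 in MM cells and 7.41 to 7.56 in cortex. Cldn5, an endothelial junction gene, met the lower rule, at 6.57 to 7.27 against 9.40 to 9.47, but standard-labelled cortex had it at 6.5 on average. Of 16 macrophage and leukocyte genes 1 or 2 were above background in an MM cell and 13 in each library, and the median gene was at 5.95 to 6.69 and 7.47 to 7.60, with 6.19 to 6.28 in standard-labelled cortex. Cd74, of antigen presentation, was at 5.65 to 6.84 against 9.63 to 9.76 and H2-Ab1 at 6.42 to 7.39 against 10.57 to 10.60. Standard-labelled cortex had Cd74 at 6.16 to 6.37, within the range of the MM cells, and H2-Ab1 at 8.24 to 8.27. Of 13 smooth muscle genes 1, 3, 1 and 3 were above background in cells 14, 15, 16 and 19, against 10 in each diluted library. None was higher and 2, Acta2 and Mgp, were lower, beside 12.2% of all genes. Acta2, Tagln and Myh11 were below background in every MM cell, and Notch3 was above it in all 4. Myl9 was at 11.80 in MM cell 19 and at 6.19 to 6.30 in the others, and Des at 11.45 and 11.39 in cells 15 and 19. Mgp was at 6.41 to 7.35 against 9.82 to 10.59. Erythroid genes were above background in 0 or 1 of 9 per cell, and podocyte genes in 0 or 1 of 7. Matrix genes were above background in 8 to 11 of 20 per MM cell and in 12 to 14 in diluted cortex, with none higher or lower. In both groups that is above the share over all genes. Col3a1 and Col1a1, of fibrillar collagen, were at 10.62 and 10.08 in MM cell 19 and at 7.22 to 8.21 in the others, against 6.80 to 7.37 in cortex. Of the 15 ureteric bud genes, 3 to 5 were above background in an MM cell and 11 or 12 in diluted cortex. Krt8 and Sox9 were above background in all 4 cells, and Ret in no MM cell and no diluted library. The part of other cells or free RNA in any single value was not tested. Of immediate early genes 2 of 16 were lower, of small nucleolar RNAs 2 of 51 and of Y-linked genes 0 of 5, beside 12.2% of all genes, and none of these was higher.

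Few signalling and Hox genes of the embryo met a rule. Of all genes, 0.155% were higher and 12.2% lower, so a list of such size without a higher gene does not stand out. Of 37 Hox genes, 17, 11, 10 and 14 were above background in cells 14, 15, 16 and 19 and 20 or 21 in cortex, none was higher and Hoxd8 was lower, at 4.92 to 6.67 against 8.18 to 8.48. Hoxa5 was at 10.24, 11.03, 7.15 and 10.66 against 7.97 to 8.59. The median Hox difference of 0.74 was -0.10 with receptor medians aligned. Of 22 FGF, BMP and sprouty genes none was higher, and Bmpr1a was lower, with a difference of -2.36. Id3 and Id1, targets of BMP signalling, were above background in every cell, Id3 at 11.78, 12.66, 10.16 and 12.91 against 10.52 to 10.99 and Id1 at 8.67, 12.19, 8.53 and 12.07 against 9.68 to 9.98. Of 19 Tead and Hippo genes none met either rule, Tead2 included, which missed it in MM cell 16. Among oncofetal and chromatin genes, 0 of 17 were higher, and Eed, a Polycomb subunit, was lower, at 4.60 to 4.84 against 8.39 to 8.59. Its probe sets disagreed, the one used differing by -3.76 and the other by 0.82.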

How the data were processed

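Signals were deposited by the authors as 1 log2 value per probe set and array, and the values show that scale. Affymetrix Expression Console is named in the submitters' processing notes, and how probes were summarised or arrays scaled is not given in the sources used here. Values entered unchanged. Of 35557 probe sets, 21789 carry 1 symbol in the platform annotation, 1621 several and 12147 are unlisted and unnamed. The brightest probe set over the 15 arrays stood for a gene. Arrays have no count depth, and their small number limits the precision.

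The members and the 41 gene lists were chosen with earlier results of these data known. Named genes were drawn from the 15 highest and 15 lowest counted differences, the markers Mest, Tead2, Snai1 and Crabp2, Crym and Six2. Further ones came from the members farthest from 0 of each list, at most 6. Embryo and other cell type list members above background in a cell were named in part, so an unnamed member may be above background too. Others are said to be picked after their values were seen. Where a group lay wholly at background, a fold is a bound, with each dim array at the higher of its signal and its background level. The counting rule was tested on simulated data. Alternatives covered 3 scalings, probe set and group summaries, the background percentile (95 in place of 99), thresholds of 1 and 3 log2 units, the standard-labelled cortex as reference and leaving out each array. Promoters came from RefSeq (GRCm38.p6). Computation used Python 3.11.15, numpy 2.4.6, pandas 2.3.3 and matplotlib 3.10.9.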

Additional observations from a re-analysis of the deposited data

Results flagged for a closer look

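For 126 named genes and 41 lists, the 4 MM cells were searched for 1 cell far from the other 3, by the gap to its nearest neighbour over the whole range. It was beyond Dixon's 95% critical value in 21 of 167 groups. Chance flags about 1 in 20 groups, but part of these genes were named because a single cell was above background or after their values were seen, so the number cannot be read against that rate. MM cell 16 was the low cell in Mfap2 (8.22), Fscn1 (7.70), Tead2 (7.54), Tubb5 (8.72), Cenpw (6.51) and 2610318N02Rik (5.86), and in the median level of chaperone genes (6.56) and of respiratory chain genes (10.54). It was the high cell in 5730408K05Rik (13.04) and in the median of cytochrome P450 genes (6.54), a value below its background level. MM cell 19 was high in H2bc4 (10.98), Lgmn (10.98), Myl9 (11.80), Col3a1 (10.62) and the median of fetal growth genes (7.43), and low in Cmbl (4.84), which is below background in all 4 cells. MM cell 14 was high in Emcn (11.77) and Acadl (10.40). MM cell 15 was high in Meis1 (11.0) and, below its background level, in Abhd14b (6.82) and Slc3a1 (6.67).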

How the results depend on the processing

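The count of higher genes moved most. Against 29 as deposited it was 9 with receptor medians aligned, 14 with array medians aligned, 261 after quantile normalization, 52 with the 95th percentile as background, 92 with no background requirement, 387 at 1 log2 unit, 8 at 3, 142 against standard-labelled cortex and 55 in at least 3 MM cells. Lower genes, 2286 as deposited, came to 3957 with receptor medians aligned, 3800 at 1 log2 unit and 1159 at 3, and were within 1.5 times under the other alternatives. The median difference over all genes, 0.32, was -0.53 with receptors aligned, -0.053 with array medians aligned, 0.077 after quantile normalization, 0.29 with group medians and 0.42 against standard-labelled cortex. Leaving out 1 array gave 26 to 79 higher genes, with the 79 without MM cell 16, and 2291 to 2604 lower genes. Of the 29, 18 were higher with each array left out in turn. Against standard-labelled cortex the sign turned for the lower genes Aqp2 (0.78) and Cldn5 (0.37), and for Plvap (0.97), Egfl7 (0.81), Vim (1.03), Rplp0 (0.07) and Rps28 (-0.49), which met neither rule. The causes were not tested. No paired analysis was possible because the cells and libraries share no replicate labels and the comparison has no test. A gene below background has no level here, and the higher background of MM cells hides weak transcripts.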

Other observations

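Probe sets that the annotation leaves unlisted were put through the same rules one by one. Of 12147, 105 (0.864%) met the higher rule and 419 (3.45%) the lower rule, so the share of higher probe sets was above the 0.155% of the named genes. A probe set has no gene here, and the brightest probe set of a gene was not chosen for them, so the shares rest on different units.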
